A study of Mus musculus with 2 samples.

Results

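The 10 genes that report or adjust Notch signaling and are described here were followed through the cells of developing mouse somites: the transcriptional effectors Hes1, Hes5, Hes6, Hes7, Hey1, Hey2 and Heyl, the fringe glycosyltransferases Lfng and Mfng, and the feedback inhibitor Nrarp. They were taken by symbol from the 27998 genes of the count tables, and all 10 were present. Single-cell RNA sequencing was performed on inter-limb somites of wild-type C57BL/6 embryos of 2 ages, embryonic day 9.5 (E9.5) and 11.5 (E11.5). At each stage the somites of 3 embryos were pooled into 1 droplet library, with no transgene and no treatment at either stage, so every stage difference below is also a difference between 2 libraries and the 2 cannot be told apart. The values are unique molecular identifiers (UMIs), random tags with which PCR copies of 1 transcript are counted once.

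Notch is a receptor that is activated by a ligand on a neighboring cell. Its cleaved intracellular part enters the nucleus, joins the DNA-binding protein Rbpj and switches on genes of the Hes and Hey families, which encode basic helix-loop-helix repressors. In the somite the pathway is known for the segmentation clock of the presomitic mesoderm and, later, for holding Pax3 and Pax7 progenitors back from muscle differentiation. In the neural tube it keeps progenitors from becoming neurons, and in vessels it patterns arteries.

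Cells were kept if they had 200 or more genes but fewer than 6500 and a mitochondrial share of UMIs below 15%, by which 9851 of 10121 E9.5 barcodes and 9595 of 10167 E11.5 barcodes remained, with medians of 12462 and 12479 UMIs per cell. The libraries had 30 cell barcodes in common. Cells were assigned to classes by marker genes, none of which is one of the 10 genes. The Pax class held cells with at least 2 UMIs of Pax3 and Pax7 together, and the Myod1 class at least 2 Myod1 UMIs. The Myog class held cells with at least 2 Myog UMIs, and the Acta1 class at least 5 Acta1 UMIs with at least 1 of Myog. Each was without the UMIs that define the later classes, and its cells did not reach the marker minimum of another tissue. Fewer such UMIs could be present. With at most 1 of them, the Acta1 class at E11.5 kept 101 of 189 cells and the Pax class 347 of 442. Neural progenitor, neuron, neural crest, sclerotome, presomitic, endothelial, epithelial and red and white blood classes were set by lists of tissue markers. A total of 5827 E9.5 cells and 4030 E11.5 cells fell into 1 class, and 447 and 313 cells met the marker lists of more than 1 tissue and were left out. Cells that passed a muscle gate at E9.5 were nearly all at the first step: 967 cells in the Pax class, 0 in the Myod1 class, 20 in the Myog class and 7 in the Acta1 class. The Pax gate does not by itself mark muscle cells. Of the 967 cells, 830 lay in a muscle cluster, 36 in a cluster of neural crest and 28 in 1 cluster of sclerotome. At E11.5 these classes held 442, 185, 399 and 189 cells, and 366 of the 442 Pax class cells lay in a muscle cluster. Genes that the gates did not use followed the order of the classes at E11.5, as Myh3 (embryonic myosin heavy chain) stood at 0.929, 1.18, 102 and 2378 UMIs per 1000000 UMIs of the class (UPM) and Myf5 (an early myogenic factor) at 133, 144, 79.6 and 59.7 UPM. The markers that set the other classes were present there, such as Pax1 in sclerotome (301 and 402 UPM at the earlier and later stage), Cdh5 in endothelial cells (381 and 520) and Sox2 in neural progenitors (328 and 612).

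A level in UPM is the sum of a gene's UMIs over the cells of a class, divided by all UMIs of that class, with an exact 95% Poisson interval in brackets. Ratios of 2 levels are on the log2 scale with an exact 95% interval. Cells of 1 library are not replicates, so no test was made, and the intervals cover counting error only. A gene counts as apart between 2 classes where its levels differed at least 2-fold and it had at least 30 UMIs in both together. The share of all genes that were apart by this rule is given in each comparison, and the counts of members and of other pathway genes both stand against it. Levels of different genes are not compared. All tissue classes and later muscle classes of a library are set against the same Pax class, so these comparisons share its cells.

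The 5' flanks of 4 of the genes are shown because the results below turn on them: Hes6 along the muscle classes, Hes5 in the neural classes, and Hes7 and Lfng in presomitic cells. Each sequence runs from 250 bases before to 50 bases after a RefSeq transcript start, 5' to 3' on the gene's strand (assembly GRCm38.p6, which is mm10). Capitals mark TGGGAA on either strand (TTCCCA in reverse), the core letters bound by Rbpj, and CAGCTG, an E-box of the kind bound by myogenic factors, which reads the same on both strands. The marked letters do not overlap. Such letters were in 25.6% (TGGGAA) and 16.3% (CAGCTG) of 32851 promoter windows of the same length, and a match is a description of the letters only. RefSeq windows were matched for Hes5, Hes6, Hes7, Hey2, Lfng and Nrarp. The windows of Hes5 (chr4:154960673-154960972, plus strand), Hes7 (chr11:69120203-69120502, plus strand) and Lfng (chr5:140607091-140607390, plus strand) follow, and then the 2 windows of Hes6 (chr1:91413173-91413472 and chr1:91413989-91414288, minus strand).
Hes5: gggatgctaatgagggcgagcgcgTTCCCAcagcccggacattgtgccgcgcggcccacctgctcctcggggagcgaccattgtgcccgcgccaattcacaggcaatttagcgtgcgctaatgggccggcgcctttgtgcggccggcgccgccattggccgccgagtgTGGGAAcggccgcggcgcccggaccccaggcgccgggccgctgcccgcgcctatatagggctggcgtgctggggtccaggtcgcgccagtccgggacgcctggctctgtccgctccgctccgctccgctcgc
Hes7: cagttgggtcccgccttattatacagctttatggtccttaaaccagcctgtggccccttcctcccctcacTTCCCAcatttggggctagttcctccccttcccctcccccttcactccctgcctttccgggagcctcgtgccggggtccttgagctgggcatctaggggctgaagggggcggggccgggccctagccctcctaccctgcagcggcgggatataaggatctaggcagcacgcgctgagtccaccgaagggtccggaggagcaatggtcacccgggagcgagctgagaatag
Lfng: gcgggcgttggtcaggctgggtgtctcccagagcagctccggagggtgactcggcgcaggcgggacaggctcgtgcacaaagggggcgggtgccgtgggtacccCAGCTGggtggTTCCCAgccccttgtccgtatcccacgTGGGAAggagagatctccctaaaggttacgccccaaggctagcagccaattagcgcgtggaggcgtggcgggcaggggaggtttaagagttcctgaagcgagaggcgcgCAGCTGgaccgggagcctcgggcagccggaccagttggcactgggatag
Hes6, first window: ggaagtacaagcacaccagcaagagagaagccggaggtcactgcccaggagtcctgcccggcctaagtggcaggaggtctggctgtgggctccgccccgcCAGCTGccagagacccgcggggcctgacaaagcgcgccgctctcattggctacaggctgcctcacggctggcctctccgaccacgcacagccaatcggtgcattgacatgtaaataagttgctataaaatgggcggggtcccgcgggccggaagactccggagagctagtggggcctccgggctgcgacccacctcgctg
Hes6, second window: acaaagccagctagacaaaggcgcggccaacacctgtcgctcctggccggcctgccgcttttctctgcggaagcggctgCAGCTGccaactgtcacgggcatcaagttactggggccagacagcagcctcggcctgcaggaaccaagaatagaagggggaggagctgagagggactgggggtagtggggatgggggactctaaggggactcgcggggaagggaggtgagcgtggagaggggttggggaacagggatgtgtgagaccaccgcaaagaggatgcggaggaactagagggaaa
TGGGAA occurred 2 times in the Hes5 window, on opposite strands and starting at bases 25 and 169, 1 time in the Hes7 window, at base 71, and 2 times in the Lfng window, at bases 116 and 143. The Lfng window also held CAGCTG 2 times, and each of the Hes6 windows held it 1 time, at bases 101 and 80, with no TGGGAA. The Hey2 window (chr10:30842734-30843033, minus strand) held TGGGAA 2 times and CAGCTG at no place, and the Nrarp window (chr2:25180508-25180807, plus strand) held CAGCTG 1 time and TGGGAA at no place.

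The first question was how the effectors and modifiers stand along the muscle classes of 1 library, from progenitor to contractile cell. At E11.5, Hes6 stood 9.93-fold higher in the Acta1 class than in the Pax class, while Hey1 stood 14.1-fold, Lfng 6.02-fold, Heyl 3.79-fold and Hes1 3.03-fold lower. The folds of Hey1, Heyl, Hes1 and Hes6 depended on the settings given below. The Myod1 class lay close to the Pax class. The genes differed in where along the classes they fell away: Hey1 already stood lower in the Myog class as a whole, and Heyl and Lfng only in the Acta1 class. Inside the Myog class, Lfng was lower in cells with at least 30 Myog UMIs, while Heyl was level.

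Hes6 (chr1:91411483-91414038, minus strand, 4 exons) encodes an atypical Hes protein that opposes Hes1 and is known for promoting differentiation of neurons and muscle. Its level at E11.5 was 82.7 UPM (76.3 to 89.5) in the Pax class, 131 (119 to 144) in the Myod1 class, 331 (318 to 345) in the Myog class and 821 (790 to 853) in the Acta1 class. No neighboring pair of intervals overlapped. Against the Pax class the log2 ratio was 0.67 (0.49 to 0.84) in the Myod1 class, 2.00 (1.87 to 2.13) in the Myog class and 3.31 (3.18 to 3.44) in the Acta1 class. Cells with at least 1 Hes6 UMI made up 66.3%, 83.2%, 93.5% and 93.1% of the 4 classes, against 7.26% of red blood cells, whose median depth of 17051 UMIs was close to the 16719 of the Acta1 class. The E11.5 red blood class held some muscle transcripts itself. Myog stood at 46.7 UPM there, 3 of its 124 cells passed the UMI minimum of a muscle gate, and 5 of its 14 Hes6 UMIs were in 1 cell. Their part in the red blood share was not tested. With each cell thinned to 5000 UMIs, and the shallower cells left out (36 of 189 in the Acta1 class), the Hes6 shares were 29.4%, 45.1%, 67.8% and 96.1%, and 2.48% in red blood cells. Some settings moved the Hes6 ratios to the Pax class outside the intervals above. Thinned, they were 0.91, 2.26 and 3.52 in the Myod1, Myog and Acta1 classes. With muscle genes counted from 1 UMI in the gates, they were 1.77 in the Myog class and 3.55 in the Acta1 class. The distribution over cells moved as a whole: the median Hes6 level per cell was 0.653 UMIs per 10000 in the Pax class, 1.07 in the Myod1 class, 2.34 in the Myog class and 7.51 in the Acta1 class, whose lower quartile was 4.29.

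Hes1 (chr16:30064384-30067796, plus strand, 4 exons) is the broadly expressed Notch-responsive repressor. Its level was 117 UPM (110 to 125) in the Pax class, 107 (96.0 to 118) in the Myod1 class, 86.9 (80.3 to 93.9) in the Myog class and 38.7 (32.2 to 46.2) in the Acta1 class. The Pax and Myod1 intervals overlapped, and the Acta1 interval lay below all others. The log2 ratios to the Pax class were -0.14 (-0.32 to 0.04), -0.43 (-0.58 to -0.29) and -1.60 (-1.88 to -1.33).

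Hey1 (chr3:8663359-8667256, minus strand, 5 exons) encodes a Hey-family repressor that is a direct Notch target. Its level was 79.2 UPM (73.0 to 85.9) in the Pax class, 61.6 (53.5 to 70.5) in the Myod1 class, 33.1 (29.1 to 37.6) in the Myog class and 5.62 (3.33 to 8.88) in the Acta1 class. Each interval lay below the previous one, and the ratios to the Pax class were -0.36 (-0.60 to -0.13), -1.26 (-1.48 to -1.04) and -3.82 (-4.58 to -3.14). The step to the Myod1 class depended on the gate, as its ratio was 0.23 with muscle genes counted from 1 UMI. Hey1 was found in 51.6% of Pax class cells and 4.23% of Acta1 class cells, and in 1.61% of red blood cells. Of all 10797 genes compared between the Acta1 and Pax classes, 95 had a lower ratio than Hey1.

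Heyl (chr4:123233556-123249875, plus strand, 5 exons) encodes the third Hey-family protein. It stood at 27.2 UPM (23.6 to 31.2), 20.6 (16.1 to 26.1), 25.5 (22.0 to 29.5) and 7.18 (4.55 to 10.8) in the same order. The first 3 intervals overlapped and the last lay apart, with a ratio to the Pax class of -1.92 (-2.61 to -1.30).

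Lfng (chr5:140607320-140615545, plus strand, 8 exons) encodes Lunatic fringe, which adds a sugar to Notch receptors and alters their response to ligands. It stood at 11.3 UPM (9.01 to 14.0), 8.55 (5.72 to 12.3), 10.7 (8.49 to 13.4) and 1.87 (0.688 to 4.08). Lfng was thus level over the Pax, Myod1 and Myog classes as wholes and lower in the Acta1 class, where 6 UMIs were found (ratio -2.59, -4.08 to -1.41). Mfng (chr15:78755882-78773475, minus strand, 8 exons) encodes Manic fringe, an enzyme of the same family. It was sparse, at 1.33 UPM (0.637 to 2.44), 2.65 (1.21 to 5.03), 4.62 (3.20 to 6.45) and 0.312 (0.00791 to 1.74). Mfng was highest in the Myog class, at 34 UMIs against 10 in the Pax class, with an interval that overlapped that of the Myod1 class, and it was 14.8-fold lower in the Acta1 class than in the Myog class on 1 UMI, with a log2 interval of -9.23 to -1.31.

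Nrarp (chr2:25180758-25183339, plus strand, 1 exon) encodes a small ankyrin-repeat protein that is induced by Notch and damps it. It had 26 UMIs in the Pax class (3.45 UPM, 2.25 to 5.06), 0 in the Myod1 class, 3 in the Myog class and 0 in the Acta1 class. With a floor of 3 counts in place of 0, Nrarp was 3.90-fold lower in the Myod1 class than in the Pax class. With the same floor it was 3.68-fold lower in the Acta1 class. The intervals of the log2 ratios reached up to -1.56 and -1.48, so counting error allows smaller differences than these folds. Nrarp had too few UMIs in both comparisons to be counted as apart. It was found in 5.20% of Pax class cells, 0 of 185 Myod1 class cells (which allows up to 1.62%) and 0 of 189 Acta1 class cells (up to 1.59%), but also in 7.26% of red blood cells (3.37% to 13.3%), at similar depths. The Myod1 and Acta1 classes thus stood below the red blood share, and how much of the Pax class level is background was not tested. Hes5 (chr4:154960923-154962371, plus strand, 3 exons), Hes7 (chr11:69120404-69124055, plus strand, 4 exons) and Hey2 (chr10:30832359-30842801, minus strand, 5 exons) had at most 6 UMIs in any of the 4 classes at E11.5. The annotation places a gene on the opposite strand over Hes5, Hes7 and Nrarp. The sources used here do not state whether strand was used in the count, and any part of the opposite genes in these levels was not tested.

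**Figure D1:**
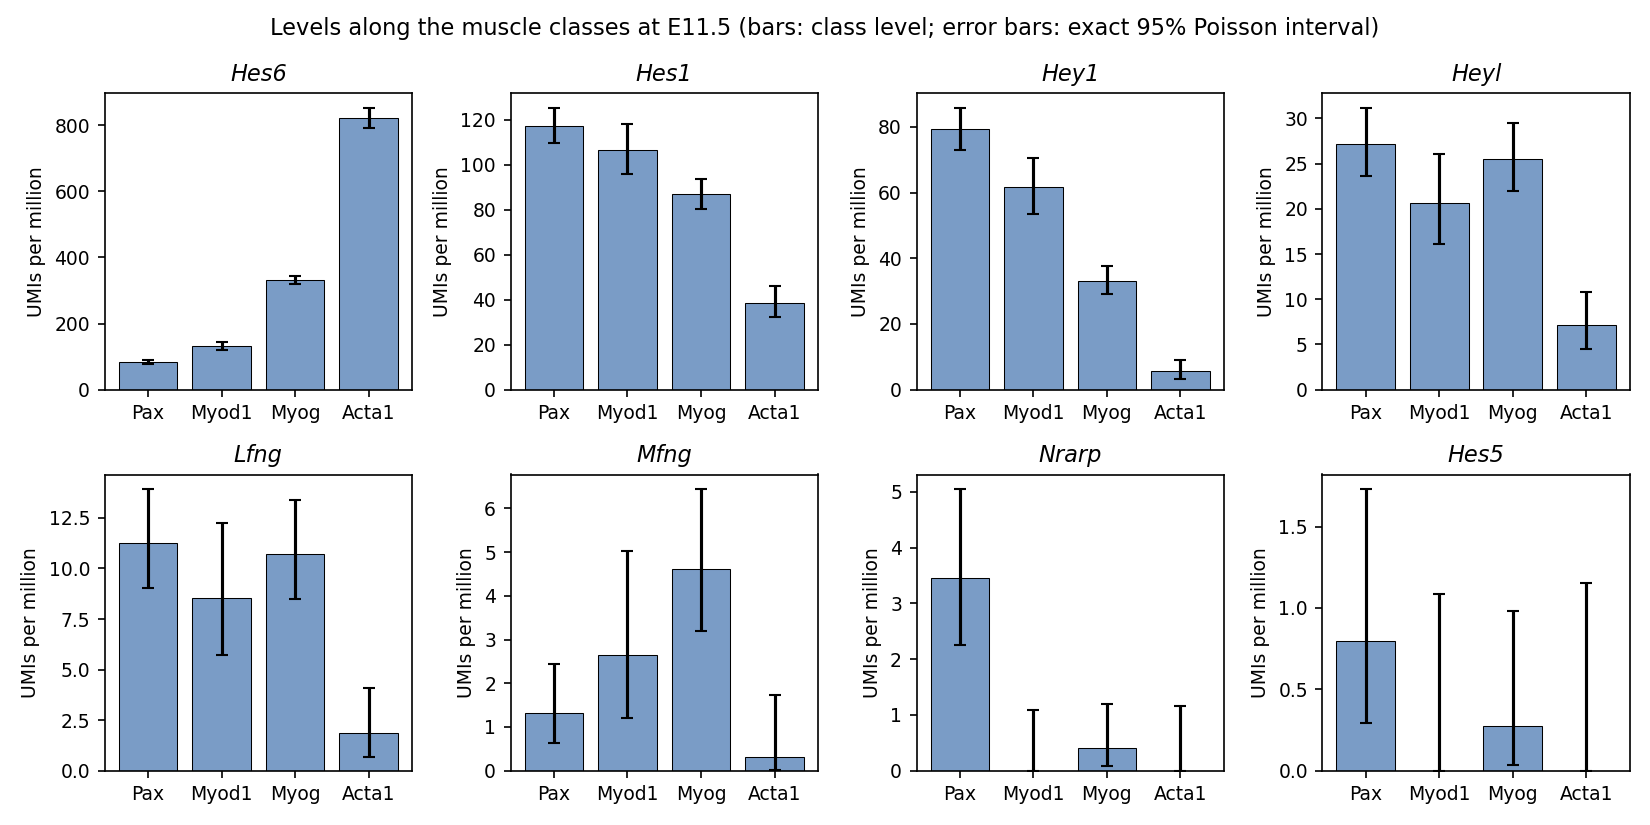
Levels of 8 genes (UPM, linear axes from 0) in the Pax, Myod1, Myog and Acta1 classes of the E11.5 library; bars are class levels and error bars exact 95% Poisson intervals. Hes6 goes from 82.7 to 821 while Hes1, Hey1, Heyl and Lfng are lowest in the Acta1 class.

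Counted together, 0 of 5 members with enough UMIs were apart between the Myod1 and Pax classes, where 0.323% of 10538 genes were at least 2-fold higher and 2.05% at least 2-fold lower. Between the Myog and Pax classes 2 of 6 were higher (Hes6, Mfng) and 1 lower (Hey1), against 4.31% and 6.60% of all genes. Between the Acta1 and Pax classes 1 of 5 was higher (Hes6) and 4 were lower (Hes1, Hey1, Heyl, Lfng), against 11.7% and 22.9% of all genes. The median log2 ratio was -0.36 over the members and -0.06 over all genes for the Myod1 class, -0.08 and -0.13 for the Myog class, and -1.92 and -0.32 for the Acta1 class. Relative to that median of all genes, Hes6 stood 3.63, Hes1 -1.29, Heyl -1.61, Lfng -2.27 and Hey1 -3.50 in the Acta1 class, so no direction depended on it. The Hey1 value of the Myog class did depend on the gates: the ratio was -0.53 with muscle genes counted from 1 UMI and -0.97 in cells with at most 1 UMI of any other tissue list, and in neither was Hey1 2-fold lower. In the Acta1 class Hey1 rested on 18 UMIs, 15 of them in 5 cells, and its ratio of -3.82 was -2.79 with muscle genes counted from 1 UMI, -4.61 as a mean over cells and -5.62 with at most 1 UMI of any other tissue list. Heyl, at -1.92, was -3.02 with muscle genes counted from 3 UMIs, -1.17 when thinned and -1.05 as a mean over cells. Both were at least 2-fold lower in each of these.

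The Myog class could be divided further, by Myog UMIs per cell, into 154 cells with 2 to 9, 83 with 10 to 29 and 162 with at least 30. Their median depths were close, at 16535, 17082 and 16890 UMIs. Hes6 stood at 154 UPM (140 to 169), 211 (189 to 235) and 555 (529 to 582) across them. Hey1 went the other way, from 61.6 UPM (52.7 to 71.5) to 28.0 (20.4 to 37.6) and 9.89 (6.67 to 14.1). Hes1 stood at 120 (108 to 134), 99.4 (84.4 to 116) and 50.1 (42.5 to 58.7). Between the outer groups the log2 ratios were 1.85 (1.70 to 2.01) for Hes6, -2.64 (-3.25 to -2.07) for Hey1 and -1.26 (-1.55 to -0.98) for Hes1. Heyl was level within its counting error, at 26.4 (20.7 to 33.2), 24.2 (17.1 to 33.2) and 25.4 UPM, and its ratio of -0.06 had an interval of -0.54 to 0.42. Lfng was lower only in the last group, at 13.0, 17.2 and 5.27 UPM. Most Hes6 of the Myog class was thus in cells with much Myog, and the cells with little Myog had Hes1 and Hey1 levels near those of the Myod1 class. Inside the Acta1 class Hes6 no longer differed with Acta1: it stood at 831 UPM (782 to 883) in 100 cells with 5 to 49 Acta1 UMIs and at 814 (775 to 856) in 89 cells with at least 50, a log2 ratio of -0.03 (-0.14 to 0.08).

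**Figure D2:**
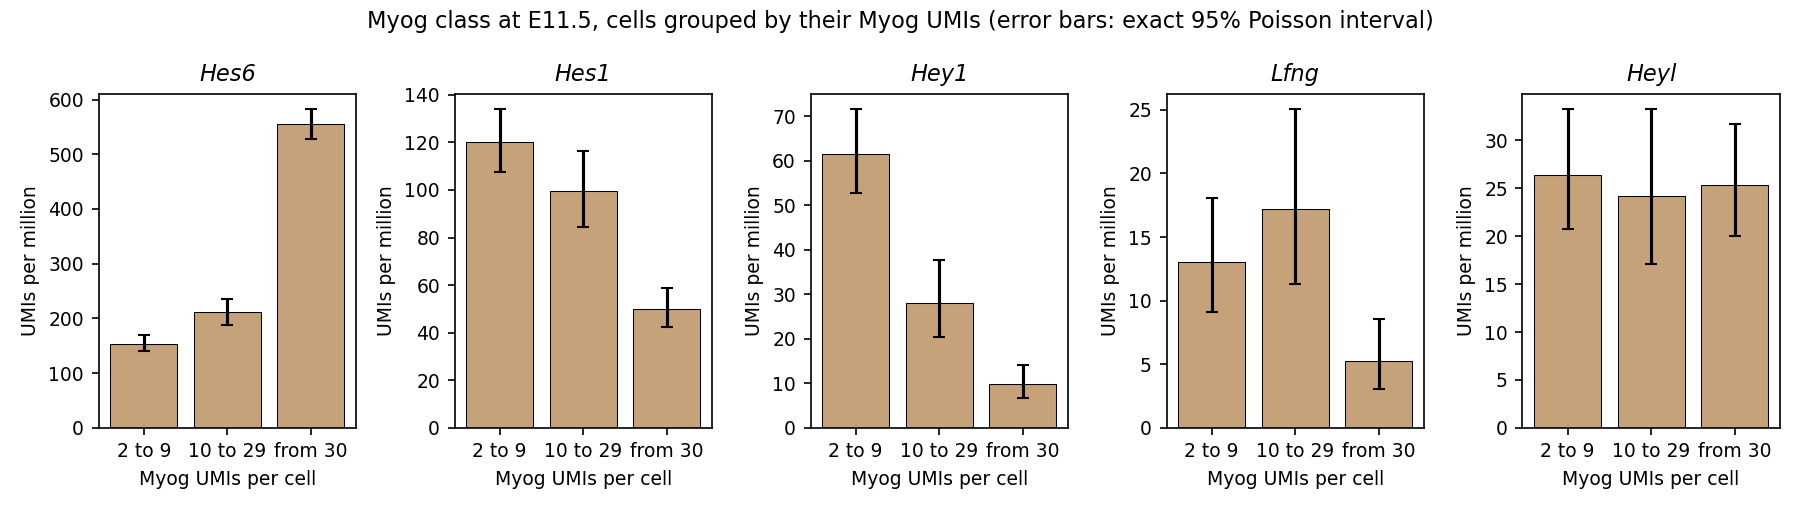
Levels (UPM, linear axes from 0) in the E11.5 Myog class divided by Myog UMIs per cell into 154, 83 and 162 cells; error bars are exact 95% Poisson intervals. Hes6 is highest and Hes1 and Hey1 lowest in cells with at least 30 Myog UMIs, and Heyl is level.

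Hes6 and Hes1 were found in the same cells in part. Of the 176 Acta1 class cells with Hes6, 56 also had Hes1 (31.8%), and of the 373 Myog class cells with Hes6, 207 had Hes1 (55.5%). Of the 13 and 26 cells without Hes6, 7.69% and 61.5% had Hes1. After thinning Hes1 was in 10.9% and 26.6% of cells with Hes6 and in 33.3% and 36.6% of those without, against 6.45% of red blood cells at all UMIs and 1.65% of thinned ones, and the few cells without Hes6 allow no comparison in the Acta1 class. The few E9.5 cells past the Pax class had low counts: in 20 Myog class cells Hes6 stood at 61.5 UPM (39.4 to 91.5) on 24 UMIs, against 331 UPM in the E11.5 Myog class, a log2 ratio of 2.43 (1.85 to 3.07) between the stages. The classes were not alike, as Myog stood at 605 UPM (530 to 687) in the E9.5 and 1826 UPM (1795 to 1857) in the E11.5 class, and E11.5 cells with 2 to 9 Myog UMIs had Hes6 at 154 UPM.

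Among 31 other Notch pathway genes (receptors, ligands, core parts and regulators), Dll1, which encodes a Notch ligand, stood higher in each later muscle class than in the Pax class, at 1.99 UPM in the Pax class, 12.7 in the Myod1 class, 44.3 in the Myog class and 25.9 in the Acta1 class. Of the 28 with enough UMIs, 1 was higher and 1 lower in the Myod1 than the Pax class (Dll1 at a log2 ratio of 2.67, the ligand gene Jag1 at -2.46), where 0.323% and 2.05% of all genes were. In the Myog class 2 were higher and 4 lower, with Dll1 at 4.47, Neurl1a, a ubiquitin ligase gene, at 2.13, and the coactivator gene Maml2 at -1.55, beside 4.31% and 6.60% of all genes. In the Acta1 class 3 were higher and 7 lower, led by Dll1 at 3.70, the Notch ligand-like gene Dlk1 at 2.79 and Neurl1a at 2.46. Of all genes 11.7% and 22.9% were apart in this way there, so the counts in the Acta1 class are near the background. The receptor gene Notch3 was among the 7 lower, at 15.3 UPM against 69.8 in the Pax class.

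The second question was how the same progenitor gate differed between the stages. In the Pax class, Heyl was 12.6-fold, Lfng 7.84-fold, Hey1 6.48-fold and Hes6 2.98-fold higher at E11.5 than at E9.5. The neural gene Hes5, the clock gene Hes7 and Hey2 were 5.57-fold, 6.78-fold and 8.59-fold lower, from low levels, of which that of Hes5 was not above its level in red blood cells. Hes1, by contrast, was present throughout, at 70.7 UPM (66.7 to 74.8) and 117 (110 to 125). The gate took unlike cells at the 2 stages. Pax7 stood at 7.02 UPM in the E9.5 and 79.8 in the E11.5 Pax class, and Myf5 at 26.2 and 133. In E11.5 cells with Pax3 and no Pax7, Hey1 stood at 37.4, Heyl at 11.5 and Lfng at 3.15 UPM. The part of this make-up in the stage differences was not tested.

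Heyl had 36 UMIs in 967 E9.5 cells, 2.16 UPM (1.51 to 2.99), and 205 UMIs in 442 E11.5 cells, 27.2 UPM (23.6 to 31.2). Lfng went from 1.44 UPM (0.922 to 2.14) to 11.3 (9.01 to 14.0), and Hey1 from 12.2 (10.6 to 14.0) to 79.2 (73.0 to 85.9). In each of these the intervals were far apart, and the log2 ratios were 3.66 (3.14 to 4.21; 3.05 when thinned), 2.97 (2.30 to 3.69) and 2.70 (2.46 to 2.93). Cells with Hey1 made up 16.9% of the class at E9.5 and 51.6% of it at E11.5 (5.01% and 27.3% after thinning). Median depths of the class were similar at both stages, 15033 and 15929.5 UMIs. Hes6 went from 27.7 UPM (25.2 to 30.4) to 82.7 (76.3 to 89.5), a ratio of 1.58 (1.40 to 1.75), and Hes1 differed by 0.73 (0.61 to 0.86).

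On the low side, Hes5 went from 4.44 UPM (3.49 to 5.57) to 0.796 (0.292 to 1.73), Hey2 from 3.42 (2.59 to 4.43) to 0.398 (0.0821 to 1.16) and Hes7 from 1.80 (1.21 to 2.57) to 0.265 (0.0322 to 0.959). These intervals did not overlap, but the E11.5 values rested on 6, 3 and 2 UMIs. The 5 cells with the most held 25 of the 74 Hes5 UMIs of the E9.5 Pax class. The neural progenitor and neural crest marker lists summed to 11.3 and 13.3 UPM in this class at E9.5 and to 3.19 and 6.64 at E11.5, with all their genes found at E9.5 and 2 genes of each list at 0 at E11.5; their part in the result was not tested. In red blood cells Hes5 stood at 6.08 UPM (3.04 to 10.9), on 11 UMIs in 3 cells, at the earlier stage and had 0 UMIs in 124 cells at the later one, so the stage difference of Hes5 in the Pax class is not told apart from one in background. Nrarp, at 4.56 UPM (3.59 to 5.71) and 3.45 (2.25 to 5.06), differed by -0.40 (-1.10 to 0.26), and Mfng had 11 and 10 UMIs.

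Of the 9 members with enough UMIs, 4 were higher at E11.5, where 13.5% of 11469 genes were, and 3 were lower, where 5.24% were. The median log2 ratio was 0.73 over the members and 0.10 over all genes. Among 29 other pathway genes 7 were higher and 2 lower, led by the regulator gene Dtx1 (0.600 to 5.04 UPM, ratio 3.07), Notch3 (13.5 to 69.8 UPM, 2.37) and Dll1 (10.0 to 1.99 UPM, -2.33). With cells thinned to 5000 UMIs or at least 100 UMIs asked for, 4 members were apart in place of 7, since the sparse genes no longer had enough UMIs.

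**Figure D3:**
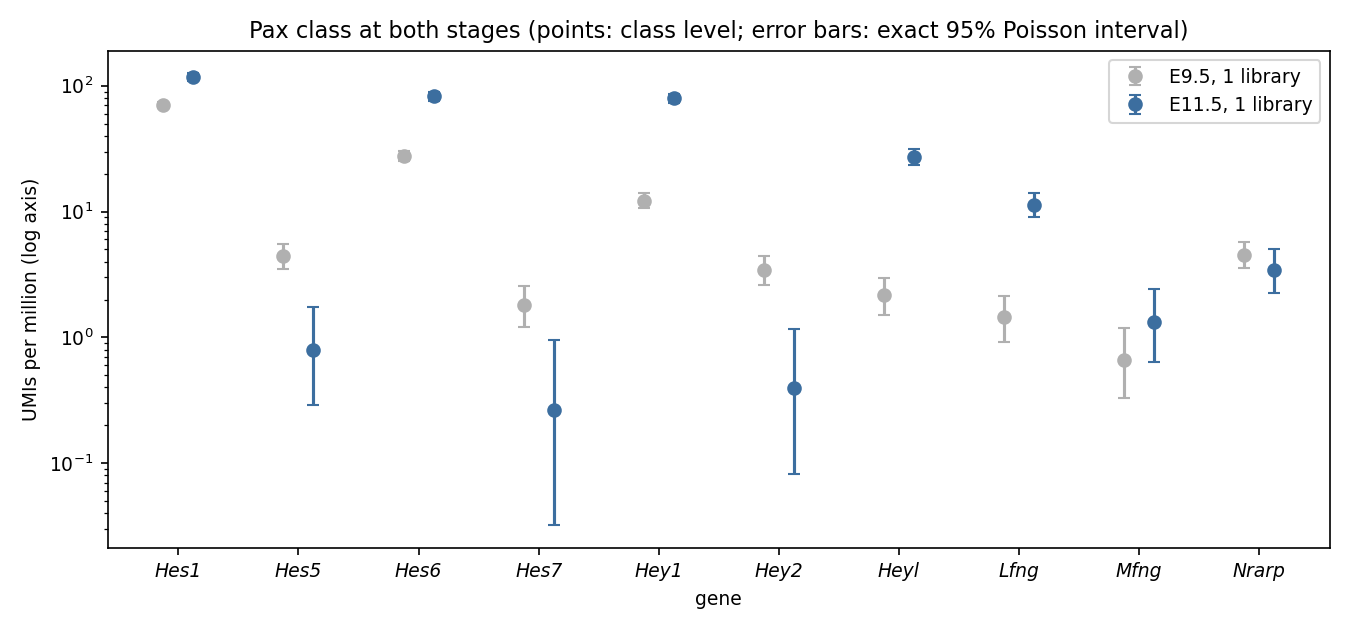
Levels of the 10 genes in the Pax class at E9.5 (967 cells, grey) and E11.5 (442 cells, blue) in UPM on a log axis; points are class levels and error bars exact 95% Poisson intervals. Hey1, Heyl and Lfng lie higher at E11.5, and Hes5, Hes7 and Hey2 lie lower.

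The E11.5 Pax class was not uniform, and 366 of its 442 cells lay in a muscle cluster. The part of the other cells in the divisions by Myf5 and Pax7 below was not tested. Cells with a Myf5 UMI (228) had more of most effectors than cells without (214), at median depths of 16873.5 and 14544 UMIs. Heyl stood at 39.1 UPM (33.3 to 45.6) against 12.7 (9.18 to 17.1), a log2 ratio of 1.62 (1.13 to 2.14). Hey1 stood at 105 (95.6 to 116) against 47.5 (40.4 to 55.4), a ratio of 1.15 (0.88 to 1.42). Hes1 stood at 139 (128 to 151) against 91.2 (81.3 to 102). Lfng stood at 14.5 UPM against 7.38, a ratio of 0.97 (0.28 to 1.71), and Nrarp at 5.55 UPM against 0.885, on 23 and 3 UMIs (2.65, 0.92 to 5.03). At E9.5 the same division did not show this: Hey1 stood at 10.6 UPM in 264 cells with Myf5 and 13.0 in 703 without, a ratio of -0.30 (-0.77 to 0.16), Heyl at 1.13 and 2.64 UPM (-1.22, -2.77 to 0.07), and Nrarp at 2.27 and 5.62 UPM (-1.31, -2.33 to -0.41). The difference between the stages in these ratios was not tested.

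Pax7 divided the E11.5 Pax class in the same sense. In 204 cells with both Pax3 and Pax7 against 189 with Pax3 and no Pax7, Hey1 stood at 109 UPM (98.6 to 120) against 37.4 (30.7 to 45.2), Heyl at 36.4 (30.6 to 43.0) against 11.5 (7.94 to 16.2) and Lfng at 15.0 (11.4 to 19.5) against 3.15 (1.44 to 5.97). The log2 ratios were 1.54 (1.23 to 1.86), 1.66 (1.10 to 2.25) and 2.26 (1.23 to 3.46). In 49 cells with Pax7 and no Pax3, Lfng stood at 21.6 UPM (13.0 to 33.8), with an interval that overlapped that of the cells with both. Hes1 differed less, at 139 (128 to 152) in cells with both and 83.9 (73.6 to 95.2) with Pax3 alone. Cells without a UMI of Pax7 or Myf5 can still have transcripts that were not captured, and the cells with both genes were deeper, at a median of 16847.5 UMIs against 14313. Heyl was found in 37.7% of Pax class cells with Hey1 and 14.5% of those without, and after thinning in 16.8% and 11.04%.

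The segmentation clock genes were sought in 56 E9.5 cells set by a list of 5 presomitic or nascent-somite markers. The list summed to 603 UPM in these cells. Of its 5 genes, 1 had 0 UMIs there, and Tbx6, another of them, stood at 24.3 UPM. Pax3 stood at 184 UPM there, and 54 of the 56 cells lay in the same cluster as 826 Pax class cells. The class is called presomitic after its list, and whether its cells were presomitic mesoderm or newly formed somite was not tested. There Hes7, a core gene of the clock, stood at 44.0 UPM (31.1 to 60.4), against 1.80 (1.21 to 2.57) in the Pax class, and 3 of 10615 genes had a higher ratio than Hes7. One of the genes that set this class, Ripply2, had the pattern over classes most like that of Hes7. Its median over the 21 classes compared was 0 UPM. As Ripply2 helped to choose these cells, this likeness was in part fixed in advance. Nrarp stood at 63.7 UPM (48.0 to 82.9) against 4.56, Lfng at 20.8 (12.3 to 32.9) against 1.44 and Hey1 at 48.6 (35.0 to 65.7) against 12.2. The log2 ratios were 4.61 (3.88 to 5.35) for Hes7, 3.86 (2.89 to 4.80) for Lfng, 3.80 (3.28 to 4.32) for Nrarp and 1.99 (1.48 to 2.48) for Hey1. Hes1 and Hes6 were not higher, at -0.65 (-1.15 to -0.19) and -0.26 (-0.98 to 0.38).

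The clock genes were patchy over these cells. Hes7 was found in 21 of 56 cells (37.5%), Nrarp in 29 and Lfng in 13, and in the E9.5 red blood class Hes7 and Lfng were found in 0 of 110 cells and Nrarp in 5, at median depths of 14768.5 and 14962 UMIs. The 5 cells with the most UMIs held 17 of the 38 Hes7 UMIs. Lfng was in 19.0% of cells with Hes7 and 25.7% of those without, 4 and 9 cells, too few to show a relation. Of 9 members with enough UMIs, 7 were higher than in the Pax class and 0 lower, against 4.51% and 10.0% of all genes, with a median ratio of 1.52 against 0.00 over all genes. Hey2, Heyl and Hes5 were among the 7 on 6, 5 and 11 presomitic UMIs, the intervals of Hey2 and Heyl included 0, and 8 of the 11 Hes5 UMIs were in 1 cell. Thinned to 5000 UMIs, 3 members were apart: Nrarp, Hey1 and Hes6, the last at -1.44. Of 26 other pathway genes 6 were higher and 2 lower, led by the ligand gene Dll3 (140 against 7.08 UPM, ratio 4.31) and the receptor gene Notch1 (396 against 32.5 UPM, 3.61). Dtx4 had 0 UMIs in presomitic cells and 2.82 UPM in the Pax class, which is below the floor of the smaller class, so no fold is given.

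Among classes with at least 50 cells, neural cells carried the highest Hes5 levels at both stages and the highest Nrarp level at E11.5. At E9.5 Nrarp was highest in presomitic cells, at 63.7 UPM. In E9.5 neural progenitors (2119 cells with Sox2 and related markers), Hes5, the main Notch effector of neural progenitors, stood at 235 UPM (230 to 241), against 4.44 in the Pax class. Nrarp stood at 46.7 (44.3 to 49.2), Mfng at 14.4 (13.1 to 15.9) and Lfng at 10.4 (9.24 to 11.6). The log2 ratios to the Pax class were 5.73 (5.40 to 6.08), 3.36 (3.02 to 3.71), 4.45 (3.60 to 5.47) and 2.85 (2.25 to 3.51). Heyl was 4.01-fold lower, at 0.539 UPM (0.308 to 0.875), or at a log2 ratio of -3.33 without doublet calls. The Hes5 ratio was 6.60 when Pax class cells with more than 1 UMI of another tissue list were left out. Hes1 differed little, at 64.9 UPM (62.0 to 67.9) and -0.12 (-0.23 to -0.02). Of 10 members 4 were higher and 2 lower (Hes7 and Heyl), against 8.95% and 5.60% of all genes, with medians of 0.55 and 0.04. Of 29 other pathway genes 5 were higher and 1 lower, led by the regulator gene Dtx4 (33.3 against 2.82 UPM, 3.56), the ligand gene Jag2 (2.97) and Dlk1 (-2.54).

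At E11.5 the 157 neural progenitors had Hes5 at 643 UPM (602 to 686) and Nrarp at 196 (174 to 221). Hes5 was found in 72.0% of E9.5 and 72.6% of E11.5 neural progenitors, and in 2.73% and 0% (0 of 124) of red blood cells, where a count of 0 allows a share of up to 2.42% and cells were deeper (medians of 14962 and 17051 UMIs). After thinning the Hes5 shares of neural progenitors were 53.8% and 74.0%. Against E9.5 neural progenitors the log2 ratio was 1.45 (1.35 to 1.55) for Hes5, 2.07 (1.88 to 2.26) for Nrarp and 1.92 (1.53 to 2.28) for Hey1, at a lower median depth (8876 against 11842 UMIs). Against the E11.5 Pax class Hes5 stood at 9.66 (8.53 to 11.11) on 6 Pax class UMIs, Nrarp at 5.83 (5.25 to 6.47) and Mfng at 3.75 (2.65 to 4.97). Lfng did not differ by 2-fold, at 17.9 UPM (11.7 to 26.3) against 11.3. Hes6, at 0.90 (0.67 to 1.12), was past 2-fold under some settings (1.15 with muscle genes counted from 1 UMI, 1.35 when thinned), and Heyl, at -2.98, stood at -5.39 in cells that also lay in a cluster of their tissue. Of 8 members 3 were higher and 1 lower (Heyl), against 8.36% and 8.69% of all genes, with medians of 0.78 and 0.08, and of 29 other pathway genes 7 were higher and 3 lower, led by Dll1 (4.86), Notch1 (3.39) and Dtx4 (3.28). In E9.5 neural progenitors Nrarp was found in 49.6% of cells with Hes5 and 23.7% of cells without, and after thinning in 27.1% and 15.0%.

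From neural progenitor to neuron at E11.5, Hes6 and Mfng were higher, Hes1, Hes5, Hey1, Lfng and Nrarp were lower, and Heyl was within 2-fold (6.34 against 3.45 UPM, on 36 and 5 UMIs). In 499 neurons Hes6 stood at 356 UPM (341 to 372), against 154 (135 to 176) in progenitors, and Mfng at 41.2 (36.1 to 46.8) against 17.9 (11.7 to 26.3). Hes1 stood at 19.6 (16.1 to 23.5) against 130 (112 to 150), Hes5 at 141 (131 to 151) against 643, and Nrarp at 30.3 (25.9 to 35.2) against 196. The log2 ratios were 1.21 (1.01 to 1.41) for Hes6, 1.20 (0.61 to 1.85) for Mfng, -2.74 (-3.09 to -2.39) for Hes1, -2.19 (-2.33 to -2.05) for Hes5, -2.70 (-2.98 to -2.42) for Nrarp, -1.76 (-2.24 to -1.29) for Hey1 and -3.35 (-4.56 to -2.25) for Lfng. Of 8 members 2 were higher and 5 lower, against 17.5% and 8.06% of all genes, with medians of -1.98 and 0.06. Of 29 other pathway genes 6 were higher and 4 lower, led by Dll3 (91.9 against 11.7 UPM, 2.97), Dtx4 (-2.37) and Notch3 (-2.19). Thinned to 5000 UMIs the Hes6 ratio was 0.97, just under 2-fold, and in cells that also lay in a cluster of their tissue the ratios were -4.32 for Hes1, -3.39 for Hes5 and -3.72 for Nrarp. The same comparison at E9.5 gave other values for most of the lower genes: Hes5 (0.18, 0.09 to 0.27), Nrarp (0.01, -0.20 to 0.23), Hey1 (0.07, -0.34 to 0.47) and Lfng (0.12, -0.34 to 0.56) were within 2-fold. Hes1 was lower there too (-1.13, -1.40 to -0.87), and Hes6 (1.90, 1.76 to 2.04) and Mfng (2.17, 1.95 to 2.39) were higher. At E9.5, 229 of the 318 neurons held at least 3 UMIs of the neural progenitor list, against 110 of 499 at E11.5, and the difference between the stages was not tested.

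The neuron gate admits cells that still have progenitor markers, and the effectors depended on it. In 389 E11.5 neurons with under 3 UMIs of the progenitor list Hes5 stood at 6.52 UPM (4.33 to 9.43) and Nrarp at 3.73 (2.13 to 6.05). In the 110 neurons with at least 3 such UMIs Hes5 stood at 558 (519 to 599) and Nrarp at 113 (95.6 to 132). Hes6 was higher in the latter too, at 807 UPM (760 to 856) against 211 (198 to 225). Muscle transcripts were present in this class: Acta1 stood at 272 UPM and Myog at 112 over all neurons, and 19 of 499 cells passed a muscle minimum. Without those 19 cells, Acta1 stood at 2.85 UPM and Hes6 at 345 (329 to 361), and Hes6 was 802 (754 to 853) and 199 (186 to 214) in the neurons with and without progenitor UMIs. At E9.5, where no neuron passed a muscle minimum, Hes6 was higher in 89 neurons with few progenitor UMIs (240 UPM, 206 to 279) than in 229 with more (124, 113 to 136). Mfng showed the same order at E9.5 (119 and 54.5 UPM) and the opposite at E11.5 (30.1 and 75.8 UPM). In E11.5 neural progenitors Hes6 stood at 154 UPM and Mfng at 17.9. The E11.5 neurons with under 3 UMIs of the progenitor list were above these levels by less than 2-fold for both genes.

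In sclerotome, the ventral somite compartment that forms vertebrae and ribs, the contrast with the Pax class turned with the stage for Heyl. At E9.5, 1326 sclerotome cells had Heyl at 15.9 UPM (14.1 to 17.8), against 2.16 (1.51 to 2.99) in the Pax class. The log2 ratio was 2.88 (2.37 to 3.42), and 41 of 11552 genes had a higher one. With cells thinned to 5000 UMIs the Heyl ratio was 2.30. Of the 1326 cells, 1150 lay in a cluster of sclerotome. At E11.5, 1650 sclerotome cells had Heyl at 3.26 UPM (2.55 to 4.11), against 27.2 in the Pax class, a ratio of -3.06 (-3.47 to -2.67). Of the 1650 cells, 884 lay in a cluster of sclerotome. Between the stages the log2 ratio of Heyl was -2.28 (-2.68 to -1.90) in sclerotome and 3.66 in the Pax class, and the difference between the stages in the contrast was not tested. Heyl was found in 15.1% of E9.5 sclerotome cells and 2.85% at E11.5 (7.26% and 1.30% after thinning), and in 0% (0 of 110, allowing up to 2.73%) and 1.61% of red blood cells, which were deeper.

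Hey1 was low in sclerotome at both stages, at 7.71 UPM (6.48 to 9.10) and 3.90 (3.12 to 4.82), and at E11.5 this was 20.3-fold below the Pax class. Lfng had 36 UMIs at E9.5 (2.00 UPM, 1.40 to 2.76) and 4 at E11.5 (0.184 UPM, 0.0500 to 0.470), 61.5-fold below the Pax class, with a log2 interval of -7.85 to -4.53. Hes1 did not follow them, at 74.9 UPM (71.0 to 79.0) and 111 (107 to 116), within 2-fold of the Pax class at both stages. At E9.5, 1 of 9 members was higher (Heyl) and 3 lower (Hes5, Hey2, Nrarp), against 2.97% and 2.87% of all genes, with medians of -0.43 and 0.00. At E11.5, 0 of 6 were higher and 5 lower (Hes6, Hey1, Heyl, Lfng, Nrarp), against 6.67% and 3.79%, with medians of -2.19 and 0.10. Of 28 other pathway genes 0 were higher and 1 lower at E9.5 (Dll1, -1.66), and 2 were higher and 3 lower at E11.5, led by Dtx4 (-1.91), Dtx1 (-1.42) and Jag1 (1.37). Nrarp was found in 1.81% and 1.64% of sclerotome cells, below its red blood shares of 4.55% and 7.26%. Thinned to 5000 UMIs, 1 member at E9.5 and 3 at E11.5 were apart, and Hes5 at E9.5 stood at -0.28 when cells with more than 1 UMI of another tissue list were left out.

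In endothelial cells, which line vessels, Mfng and Nrarp were the members furthest above the Pax class. Mfng stood at 50.3 UPM (44.6 to 56.5) in 359 E9.5 cells and 76.1 (64.6 to 89.1) in 116 E11.5 cells, against 0.660 (0.329 to 1.18) and 1.33 (0.637 to 2.44) in the Pax class. The log2 ratios were 6.25 (5.39 to 7.27) and 5.84 (4.92 to 6.93). Nrarp stood at 26.4 UPM (22.3 to 31.0) and 60.4 (50.2 to 72.1), with ratios of 2.53 (2.12 to 2.95) and 4.13 (3.51 to 4.80). Mfng was found in 41.5% and 47.4% of endothelial cells and in 1.82% and 0% of red blood cells (0 of 124, allowing up to 2.42%), whose median depths were 14962 and 17051 UMIs against 13621 and 15070. Hey1 stood at 26.2 UPM (22.1 to 30.8) and 49.1 (40.0 to 59.7), higher than the Pax class at E9.5 (1.10, 0.78 to 1.41) and lower, by less than 2-fold, at E11.5 (-0.69, -1.01 to -0.38). The E9.5 endothelial Hey1 was concentrated in few cells, as 40 of 147 UMIs were in 5 cells, and 49.3% of cells with Hey1 had Nrarp, against 20.8% of those without (35.3% and 10.2% after thinning).

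Of 10 members 3 were higher (Mfng, Nrarp, Hey1) and 1 lower (Heyl) at E9.5, against 12.1% and 10.1% of all genes, with medians of 0.18 and -0.09. At E11.5, 2 of 7 were higher (Mfng, Nrarp) and 1 lower (Lfng), against 11.4% and 6.65%, with medians of -0.24 and -0.02. Of 28 other pathway genes 7 were higher and 4 lower at E9.5, led by the arterial ligand gene Dll4 (23.9 against 0.0600 UPM, on 1 Pax class UMI), the receptor gene Notch4 (3.82) and Dll3 (-2.31). At E11.5, 8 were higher and 4 lower, led by Dll4, Notch4 at 3.63 and Dtx4 at -3.30. Dll4 stood at 40.8 UPM against 0 UMIs in the Pax class, 102-fold higher with a floor of 3 counts in place of 0. Heyl in E11.5 endothelial cells, at 23.1 UPM (17.0 to 30.7), rested on few cells: 11 of 116 had a UMI and 5 held 38 of the 47 UMIs. Among the 73 cells that also lay in an endothelial cluster the Heyl ratio to the Pax class was -5.27, in place of -0.24. Hes6 at 58.5 UPM in these cells was 33.1 without the 5 that passed a muscle minimum. Its ratio of -0.50 was then -1.32, and it was -1.59 in the endothelial cluster and -1.03 as a mean over cells, so that Hes6 joined the lower genes under these 3 settings. At E9.5, Hes5 stood at 1.04 in place of 0.17 when cells with more than 1 UMI of another tissue list were left out of the Pax class.

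**Figure D4:**
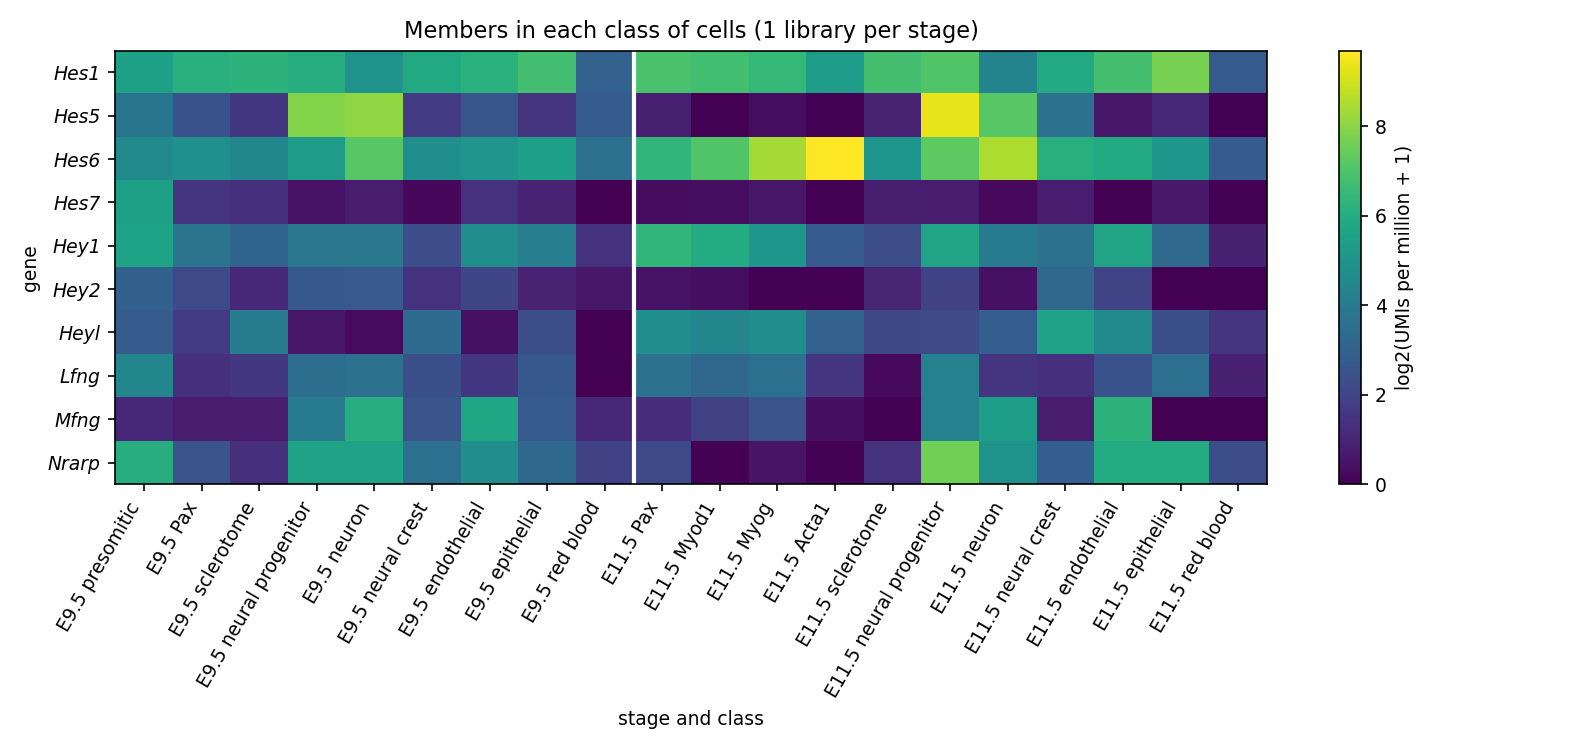
Level of each gene, as log2(UPM + 1), in classes of cells at E9.5 (left of the white line) and E11.5 (right). Hes5 is brightest in neural progenitors and neurons, and Hes6 in the Acta1 class and neurons. Hes7 is brightest in presomitic cells and Mfng in endothelial cells and neurons, while Hes1 is lowest in red blood cells.

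Over the classes with at least 50 cells, the order of levels differed by gene. Hes1 was highest in E11.5 epithelial cells, at 209 UPM (188 to 232), and lowest in red blood cells, at 5.67 (3.02 to 9.70) and 7.19 (3.83 to 12.3). Among the E11.5 Pax class (117), sclerotome (111), endothelial (112) and neural progenitor (130) classes its intervals overlapped. Hes6 was highest in the Acta1 class, and the E11.5 neurons (356, 341 to 372) and Myog class (331, 318 to 345) came next with overlapping intervals. Hey1 was highest in the E11.5 Pax class (79.2), followed by the Myod1 class (61.6, 53.5 to 70.5). E11.5 neural progenitors (49.6, 38.8 to 62.5), E11.5 endothelial cells (49.1) and E9.5 presomitic cells (48.6) came next. Their intervals overlapped each other and that of the Myod1 class. Heyl was highest in E11.5 neural crest, at 46.9 UPM (36.2 to 59.7). Hey2 did not pass 8.65 UPM (4.47 to 15.1), reached in E11.5 neural crest on 12 UMIs.

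Over the 21 classes with at least 50 cells, the genes most alike were named by Pearson correlation of log2(UPM + 5) among 13377 genes with at least 100 UMIs. The classes of 1 library share its depth and preparation, and the values are descriptions. Hes5 was most like Pou3f2 (0.980), Ccdc177 and Fam181a, Hes7 most like Ripply2 (0.978), Gm14226 and Blnk, and Hes6 most like Tppp3 (0.912), Prkaca and Gatsl2. Ripply2 is a marker that set the presomitic class, so its likeness to Hes7 was in part fixed in advance. Hes1 was most like Cnep1r1 (0.897), Plekhg2 and Fkbp9, Mfng most like Nova2 (0.889), Hecw2 and Stox1, and Nrarp most like Fzd10 (0.852), Notch1 (0.805) and Efcc1. Heyl was most like Stard13 (0.835), Adamts12 and Adamts15, Hey2 most like BC048403 (0.810), Xylb and Bche, Hey1 most like Gm21887 (0.795), Notch3 (0.779) and Tmem229a, and Lfng most like Zfp114 (0.769), Echdc1 and Nr1h2. Among the members themselves the highest values were 0.69 for Hes5 and Nrarp and 0.67 for Hey1 and Lfng, and Hes5 and Heyl had the lowest, -0.31.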

How the data were processed

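Somite cells were captured with 10x Genomics Chromium, with 1 library at each stage. According to the submitters' processing notes, Cell Ranger 3.0.1 and mm10 were used. The deposited values are the raw UMI counts per gene and barcode that the authors obtained with it, without normalization and before their filters on cells. They were read as counts, and the authors' limits on genes and mitochondrial UMIs were applied. The members, gene lists and classes were chosen with earlier results of these data known.

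Cells of the muscle classes had no call for another tissue, and cells that met 2 tissue lists were left out, except that a cell meeting the neuron and neural progenitor lists was a neuron, and sclerotome cells past a Pax or muscle minimum were left out. Named genes are the 10 members, the 3 other pathway genes furthest apart per comparison and the 3 most alike per member. Dll1 and Notch3 along the muscle classes, other marker genes and the divisions of classes were chosen after values were seen. Mymk and Mymx appear in the tables under older symbols. UMIs were summed per class, with exact Poisson, exact conditional (ratios) and Clopper-Pearson (shares) 95% intervals. No test was possible with 1 library per stage. The ratio and interval calculation was tested on simulated data. Doublets were called with Scrublet (6.69% of E9.5 and 3.75% of E11.5 cells) and removed only in an alternative. Alternatives were other gate minima, a limit on other tissue UMIs, no doublet calls, at least 1000 genes per cell, thinning to 5000 UMIs, agreement with Leiden clusters built without Notch genes, the mean over cells and other UMI minima. Leaving out tissue cells that pass a muscle minimum was added after seeing the data. Python 3.11.15, numpy 2.4.6, scipy 1.17.1, pandas 2.3.3, scanpy 1.11.5 and matplotlib 3.10.9 were used. Gene positions are from GENCODE M21 (GRCm38).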

Additional observations from a re-analysis of the deposited data

Results flagged for a closer look

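Heyl was set apart by its contrast between sclerotome and the Pax class, which took opposite directions at the 2 stages. The log2 ratio was 2.88 at E9.5 (2.30 when thinned) and -3.06 at E11.5. Both classes moved, sclerotome from 15.9 to 3.26 UPM and the Pax class from 2.16 to 27.2 UPM. With 1 library per stage the difference between these ratios was not tested, and stage and library cannot be told apart.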

How the results depend on the processing

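Of 947 log2 ratios recomputed under 11 alternatives, 877 stayed within the counting interval of the reported value, 70 moved outside it and 0 of those apart changed direction. Part of the 877 was fixed in advance. Changing the UMI minimum kept the same cells, so those 67 and 92 ratios could not move. The muscle gate settings and the limit on other tissue UMIs likewise left the neuron and neural progenitor cells unchanged. Leaving out tissue cells past a muscle minimum changed only the neuron and endothelial classes of these comparisons. Ratios without those 2 classes could not move under it. Ratios within 2-fold could change sign. Hey1 between the Myod1 and Pax classes stood at -0.36, and at 0.23 with muscle genes counted from 1 UMI. The number of members apart was within 1.5 times the reported one in 119 of 132 cases. It moved in the others. With at most 1 UMI of other tissue lists, 1 member was apart between the Myog and Pax classes in place of 3 (in 247 and 347 cells), as Hey1 stood at -0.97 and Mfng no longer had enough UMIs. With each cell thinned to 5000 UMIs, 4 were apart between the stages of the Pax class in place of 7, 1 in E9.5 sclerotome in place of 4, 3 in E11.5 sclerotome in place of 5 and 3 in presomitic cells in place of 7. Asking for at least 100 UMIs gave 4 between the stages, 3 in E11.5 sclerotome and 2 in presomitic cells. Asking for no minimum gave 2 for the Myod1 class in place of 0, 7 for the Myog class, 10 for the Acta1 class in place of 5, 8 in E11.5 sclerotome and 5 in E11.5 endothelial cells in place of 3. By construction, thinning and minima change how many sparse genes are counted. The cause of the ratios that moved was not tested. No paired analysis was possible because each stage has 1 library. No value here has a replicate library behind it, and Hes5, Hes7, Hey2, Mfng and Nrarp in the muscle classes were near the limit of detection.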

Other observations

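Neural crest and epithelial cells were in no comparison above. In neural crest, the migratory population that forms glia and peripheral neurons, Heyl stood at 9.41 UPM (7.21 to 12.1) in 394 E9.5 cells and 46.9 (36.2 to 59.7) in 73 E11.5 cells, with a UMI in 11.4% and 47.9% of cells. Hes6 stood at 27.6 and 67.1 UPM and Hey1 at 3.95 and 11.5, while Hes1 was level, at 58.3 (52.6 to 64.4) and 57.7 (45.7 to 71.8). Muscle transcripts were present in E11.5 neural crest, with Acta1 at 255 UPM and 5 of 73 cells past a muscle minimum, and 17.8% of its cells were doublet calls. Their part in these values was not tested.

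In epithelial cells Hes1 stood at 110 UPM (96.4 to 124) in the earlier library and 209 (188 to 232) in the later one. Nrarp had 8.36 UPM (5.04 to 13.1) and 60.5 (49.3 to 73.4). The later value rested on few cells, as 30 of 111 had a Nrarp UMI and 5 held 52 of the 102. Mfng had 13 UMIs in 149 E9.5 cells and 0 in 111 E11.5 cells. In 84 E11.5 white blood cells Mfng stood at 10.2 UPM (5.11 to 18.3) and Hes1 at 20.5 (12.8 to 31.0), and Hes5, Hes7, Hey2, Heyl and Nrarp had 0 UMIs.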
